A study of Mus musculus with 2 samples.

Results

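The genes described here are 5 microRNA genes known from the cells of blood vessels: Mir126a of endothelial cells, Mir143 and Mir145a of mural cells (smooth muscle cells and pericytes), and Mir221 and Mir222, which act in both. They were chosen by name, with earlier results of these data known. All 5 have a row among the 1973 microRNA genes of the tables and a count in both libraries. The study sequenced small RNAs, of a labelled size below 30 nt, from the hindbrains of newborn mice of strain B6NCrl (postnatal day 0). It holds 1 group of 2 libraries, pup 3 and pup 1, each from a single hindbrain, with no treatment or genetic change labelled and the sex not collected. No condition was compared, so the results are the levels of these genes and how far the pups differed.

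MicroRNAs are cut from hairpin precursors, and the mature strand pairs with messenger RNAs mainly through its seed (bases 2 to 8), which lowers their translation and stability. miR-126 is a hallmark of endothelial cells and acts on vessel integrity by relieving the brakes on growth factor signalling. miR-143 and miR-145 are read from a shared primary transcript in smooth muscle cells and favour their contractile state. miR-221 and miR-222 lower the kinase Kit and the cell cycle inhibitor p27 and are also made by many cells outside vessels, so they mark vessels less strictly.

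Same-strand counts over all microRNA genes totalled 3012320 in pup 3 and 2459757 in pup 1. Levels are CPM, counts scaled to these totals, and mean ± SD values are over both pups (n = 2). Reads that map to several loci, which these tables do not assign to a gene, made up 42.0% (pup 3) and 40.2% (pup 1) of the reads. None of the 5 precursors shares a run of 20 nt with an annotated microRNA precursor at another locus. Precursors that overlap it on either strand were not counted. Both tissue checks held counts, as sums over their lists. The 7 neuronal genes came to 38949 CPM in pup 3 and 36379 CPM in pup 1. Of 5 tested by the exact binomial test described below, 3 (Mir137, Mir128-1 and Mir153) were called higher in pup 3 and 1 (Mir149) lower. Over all genes tested, 25.6% were called higher and 21.3% lower, the shares beside which both checks stand. Mir124a-1, Mir124a-2 and Mir124a-3 of this list held little of the sum, at mean levels of 5.26, 2.31 and 0.942 CPM. Each of them shares 20 nt with other precursors and can be undercounted. The Hox cluster genes Mir10a and Mir10b, which mark position along the hindbrain, came to 33740 CPM in pup 3 and 56575 CPM in pup 1, a log2 fold of summed CPM of -0.75. Both were called lower in pup 3, with Mir10b at 10196 CPM in pup 3 and 20858 CPM in pup 1. That sum differed more between the pups than the sum of any other list used here, and its part in the values below was not tested.

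The mature 3′ strands of the genes found in the RefSeq table (build GRCm38.p6) are shown because the seed, in capitals, sets which of them can share targets. The table matched 3 of the 5 genes, and Mir143 and Mir145a are given by name only.
mmu-miR-126a-3p, chr2:26591402-26591423, plus strand: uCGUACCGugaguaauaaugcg
mmu-miR-221-3p, chrX:19146307-19146329, minus strand: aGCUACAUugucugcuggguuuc
mmu-miR-222-3p, chrX:19146901-19146923, minus strand: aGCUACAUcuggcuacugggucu
miR-221-3p and miR-222-3p carry the same seed, are identical over their first 8 bases, and match at 11 of 23 positions in all when set side by side without gaps. The seed of miR-126a-3p occurs in no other gene among the 1738 mature strands of the table. The seed of the Mir221 and Mir222 pair occurs in 1 further gene, Mir1928, which had 0 counts in both libraries; a count of 0 allows up to 0.996 CPM in pup 3 and 1.22 CPM in pup 1, counting error only.

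The hairpins below show where each 3′ strand, in capitals, lies in its precursor. Counts are given per precursor, so reads of the 5′ and 3′ strands were summed.
Mir126a, chr2:26591357-26591429, plus strand: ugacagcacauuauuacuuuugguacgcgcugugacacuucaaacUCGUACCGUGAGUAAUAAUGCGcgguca
Mir221, chrX:19146294-19146388, minus strand: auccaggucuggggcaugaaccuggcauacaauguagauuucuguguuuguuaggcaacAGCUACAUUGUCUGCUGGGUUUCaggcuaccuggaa
Mir222, chrX:19146893-19146971, minus strand: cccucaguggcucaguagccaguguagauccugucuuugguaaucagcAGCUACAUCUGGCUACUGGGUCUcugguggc
The longest run that the Mir221 and Mir222 hairpins have in common is 9 bases, so their reads can be told apart although the seed is the same.

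Mir126a (ENSMUSG00000065540.1) was the most abundant of the 5 genes. It had 111249 counts in pup 3 and 84164 counts in pup 1. As a level this was 36931 CPM in pup 3 and 34216 CPM in pup 1, or 35574 ± 1920 CPM (SD, n = 2). The gene ranked 4th of all genes in pup 3 and 5th in pup 1, and 99.4% of the 699 genes with a count had a lower mean level. By share of the library it held 3.69% in pup 3 (exact 95% Clopper-Pearson interval 3.67% to 3.71%) and 3.42% in pup 1 (3.40% to 3.44%). It supplied 78.0% of the counts of the 5 genes in pup 3 and 80.3% in pup 1.

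Mir126a lies inside Egfl7, which encodes a protein secreted by endothelial cells. Of 19 Egfl7 transcripts in GENCODE M21, 9 span the hairpin, which falls in an intron of 8 and in an exon of 1, a transcript annotated as a retained intron. The same bases on the other strand are annotated as Mir126b, a gene without a row here. All 22 bases of its mature 5′ strand are the reverse complement of the Mir126a hairpin, so reads of the 2 genes differ by strand alone. Opposite-strand counts at this locus were 2 in pup 3 and 2 in pup 1, below the limit of 3 that a count of 0 allows.

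Mir143 (ENSMUSG00000065445.2, chromosome 18, 61649196 to 61649258, minus strand) was the second most abundant. It had 28677 counts in pup 3 and 18257 counts in pup 1. Its level was 9519.9 CPM in pup 3 and 7422 CPM in pup 1, or 8471 ± 1483 CPM (SD, n = 2), and it ranked 26th in pup 3 and 29th in pup 1. Pup 3 was the higher of the pair, and the SD was 17.5% of the mean, more than for any other of the 5 genes. Mir126a exceeded Mir143 by 3.88-fold in pup 3 and by 4.61-fold in pup 1.

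Mir145a (ENSMUSG00000065592.1, chromosome 18, 61647825 to 61647894, minus strand), the partner of Mir143, had the lowest level of the 5 genes. It had 602 counts in pup 3 and 509 counts in pup 1. Its level was 199.8 CPM in pup 3 and 206.9 CPM in pup 1, or 203 ± 5.01 CPM (SD, n = 2), at rank 192 in pup 3 and rank 185 in pup 1. GENCODE M21 places neither Mir143 nor Mir145a inside another gene. The nearest gene upstream on their strand is Carmn, a long noncoding RNA of cardiac and smooth muscle cells, whose annotated end lies 366 bases before Mir143.

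Mir221 (ENSMUSG00000065422.1) and Mir222 (ENSMUSG00000065471.1) lie 504 bases apart on the X chromosome, outside any other annotated gene. Mir221 had 1201 counts in pup 3 and 1138 counts in pup 1, which is 399 CPM in pup 3 and 463 CPM in pup 1. Mir222 had 890 counts in pup 3 and 730 counts in pup 1, which is 295 CPM in pup 3 and 297 CPM in pup 1. Mir221 averaged 431 ± 45.2 CPM and Mir222 averaged 296 ± 0.936 CPM (SD, n = 2). The order of the pair was the same in both pups, and their values did not overlap.

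Across the 5 genes the order of levels was Mir126a, Mir143, Mir221, Mir222 and Mir145a in each pup. No 2 neighbours in that order overlapped between pups, and the order by mean CPM per base of precursor was the same. Together the 5 genes held 4.73% of counts in pup 3 and 4.26% in pup 1. Their median level was 431 CPM, beside a median of 5.13 CPM over the 699 genes with a count. In bulk tissue, fewer cells of a type and less RNA per cell cannot be told apart, so these levels do not count vessel cells.

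**Figure D1:**
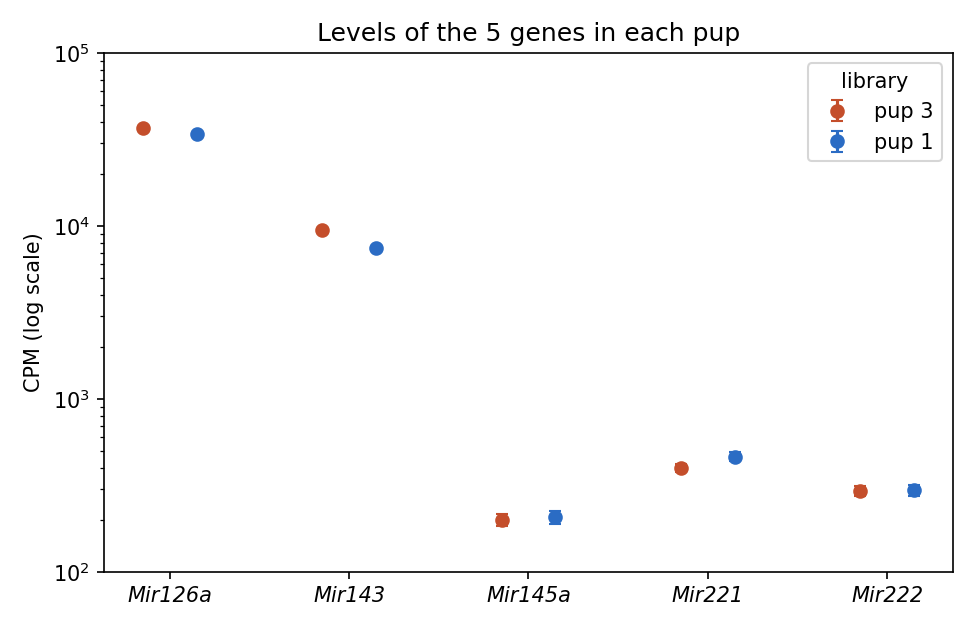
CPM of each gene (log axis) in pup 3 and pup 1, with exact 95% binomial intervals that cover counting error only and are mostly smaller than the points. Mir126a lies at or above 34216 CPM and Mir143 at or above 7422 CPM in both pups, while the other 3 genes lie between 199.8 and 463 CPM.

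**Figure D2:**
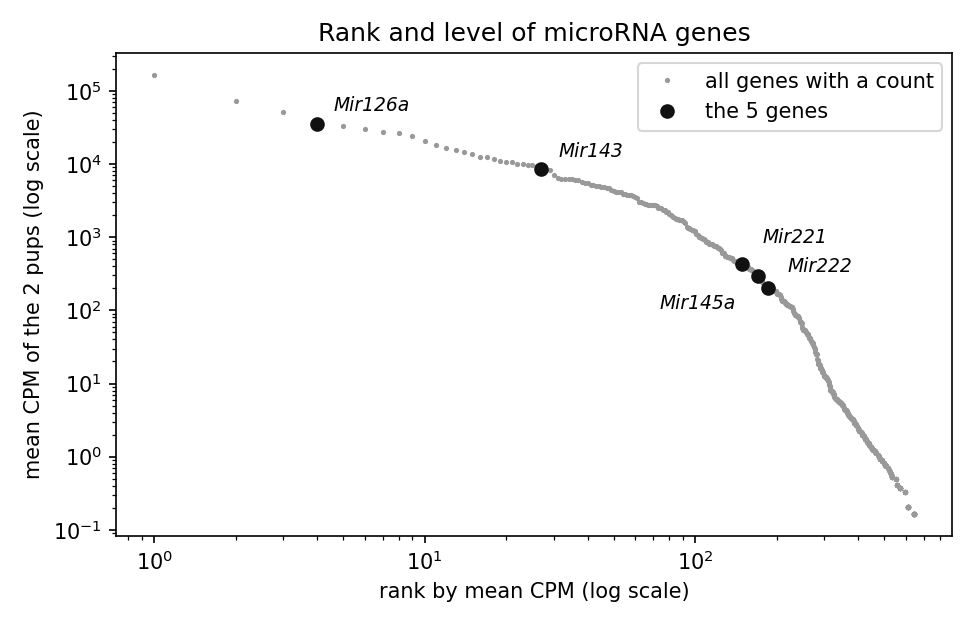
Mean CPM of the 2 pups (log axis) against rank (log axis) for the 699 genes with a count, with the 5 genes in black. Mir126a is at rank 4 and Mir143 at rank 27, while Mir221, Mir222 and Mir145a are at ranks 149, 171 and 185, where the curve has begun to drop.

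Genes at almost the same level were found by their distance in log2(CPM + 1) over the 2 libraries, which says nothing of shared function. Nearest to Mir126a were Mir335 (32818 ± 1634 CPM, SD, n = 2 here and below) at a distance of 0.16 and Mir100 (27354 ± 1297 CPM) at 0.56. Nearest to Mir143 were Mir23a (8245 ± 1122 CPM) at 0.08 and Mir322 (9668 ± 1533 CPM) at 0.27. Mir145a stood nearest to Mir30b at 0.07 and Mir701 at 0.12, Mir221 to Mir485 at 0.12 and Mir350 at 0.14, and Mir222 to Mir96 at 0.09 and Mir669l at 0.13. With 2 libraries, such a likeness is in effect one of level alone.

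The members of the Mir143 and Mir145a pair differed far more than those of the Mir221 and Mir222 pair. Mir143 exceeded Mir145a by 47.6-fold in pup 3 and by 35.9-fold in pup 1 in counts, a mean log2 ratio of 5.37 ± 0.29 (SD, n = 2). Mir145a thus made up 2.06% of the pair's counts in pup 3 and 2.71% in pup 1. Mir221 exceeded Mir222 by 1.35-fold in pup 3 and by 1.56-fold in pup 1, a mean log2 ratio of 0.54 ± 0.15 (SD, n = 2). Divided by precursor length, the mean levels gave a ratio of 46.3 for Mir143 over Mir145a and of 1.21 for Mir221 over Mir222. How well each sequence is captured by adapter ligation was not measured, so a ratio between 2 genes is one of counts.

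These pairs were set beside all 116 pairs of adjacent precursors that lie within 10 kb on 1 strand and reach 10 counts in a library. The median pair differed 6.64-fold in mean CPM, a log2 ratio of 2.73, and pairs ran from 0.06 to 10.59 on the log2 scale. Mir143 and Mir145a, with a log2 ratio of mean CPM of 5.38, were exceeded by 28 of the 116 pairs (24.1%). Mir221 and Mir222, at 0.54, were exceeded by 99 (85.3%) and so belong to the more evenly counted pairs. Among the 70 pairs in which neither precursor shares 20 nt with another, 11 (15.7%) exceeded Mir143 and Mir145a, and among the 83 pairs with at least 100 counts in both libraries for each gene, 9 (10.8%) did. Pairs of 1 cluster share genes and are not independent, so the order is given without a test.

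**Figure D3:**
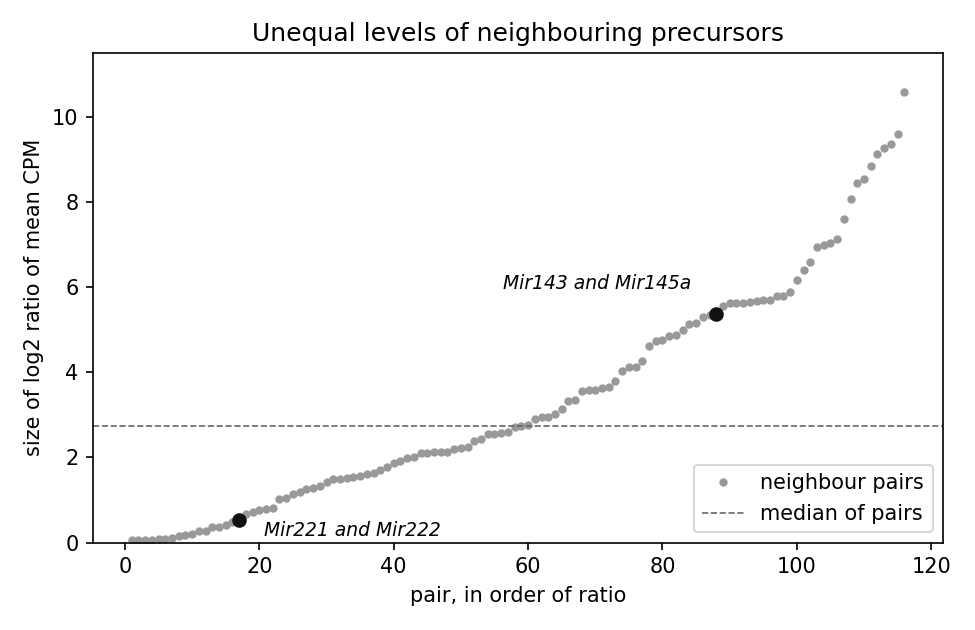
Size of the log2 ratio of mean CPM for the 116 pairs of adjacent precursors, in order, with the median as a dashed line. The Mir143 and Mir145a pair stands at 5.38 in the upper part, and the Mir221 and Mir222 pair at 0.54 in the lower part.

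Both ratios shifted between the pups beyond counting error. For Mir143 over Mir145a the log2 ratio was 5.57 in pup 3 and 5.16 in pup 1, a difference of 0.41 (two-sided Fisher's exact test on the counts, p adjusted over the 2 pairs = 8.01e-06). For Mir221 over Mir222 it was 0.43 in pup 3 and 0.64 in pup 1, a difference of -0.21 (Fisher's exact test, adjusted p = 0.0277). These tests compare 2 libraries and hold no replicate spread. Among the 116 pairs the median difference of this kind was 0.27, and 42 pairs differed more than Mir143 and Mir145a and 69 more than Mir221 and Mir222. Neither shift therefore stood out in that order. The 116 pairs include genes with few counts, such as Mir141 with 12 counts in pup 3 and 2 in pup 1, whose differences hold more counting error. The shifts were not set beside pairs with at least 100 counts alone.

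All 5 log2 folds between the pups were smaller in size than 1 SD derived from the common coefficient of variation, but the 5 were not alike in this. That coefficient was 16.5% over 361 genes, and from it a log2 fold of pup 3 over pup 1 has an SD of 0.34. It leaves out counting error and is not the observed spread of the folds. The largest of the 5 folds, that of Mir143, was 0.908 of that SD, that of Mir221 was 0.794 of it, and the smallest, that of Mir126a, was 0.169 of it. Lying within 1 SD does not set the 5 apart. Of the 226 genes at 100 CPM or more in both pups, 24.8% had a fold larger in size than that of Mir143. The median size of the 5 log2 folds was 0.10, beside 0.22 over the 395 genes tested and 0.19 over the 226 genes at 100 CPM or more in both pups; Mir143 and Mir221 lay above the last of these medians and the other 3 below it.

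An exact binomial test, adjusted by Benjamini-Hochberg over all genes tested, asked only whether the 2 libraries differ beyond counting error. By it 3 of the 5 genes differed, and 46.8% of the 395 genes tested did so. Mir143 was higher in pup 3, with a log2 fold of 0.31 (counting interval 0.28 to 0.33, exact binomial adjusted p = 2.55e-111). Mir221 was lower in pup 3, with a log2 fold of -0.27 (interval -0.39 to -0.15, exact binomial adjusted p = 2.68e-05). Both calls and directions held under all 4 scalings of the libraries tried. Of the 226 genes at 100 CPM or more, 24.8% had a fold larger in size than that of Mir143 and 30.5% one larger than that of Mir221.

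Mir126a also passed the exact binomial test, with a log2 fold of 0.06 (interval 0.04 to 0.07, exact binomial adjusted p = 2.39e-17). That is a 1.04-fold difference, resolved because of the depth at this gene. It became -0.02 (exact binomial adjusted p = 0.0185) when the scaling was estimated only from genes that reach 10 counts in a library. No direction can be given for it. Mir145a had a log2 fold of -0.10 (interval -0.28 to 0.07, exact binomial adjusted p = 0.364) and Mir222 one of -0.06 (interval -0.20 to 0.08, exact binomial adjusted p = 0.565). Neither passed, and the intervals leave room for a difference of up to 0.28 and 0.20 on the log2 scale. With a further demand of at least 1.5-fold, none of the 5 genes was called, beside 9.62% of the genes tested.

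**Figure D4:**
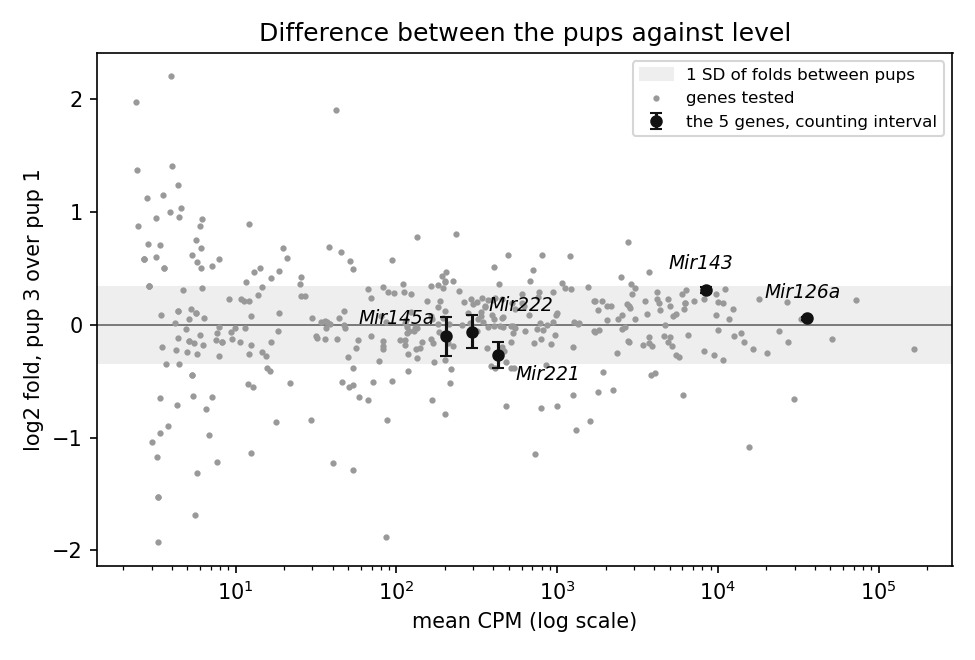
Log2 fold of pup 3 over pup 1 against mean CPM (log axis) for the 395 genes tested, with the 5 genes in black and their counting intervals as bars. The grey band is 1 SD of folds (0.34) as derived from the common coefficient of variation. All 5 points lie within the grey band, with Mir143 highest at 0.31 and Mir221 lowest at -0.27.

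Other microRNAs known from vessels were taken as 2 lists. The endothelial list names 18 genes, of which 16 have a row and all 16 had counts in both libraries; Mir126b and Mir24-1 have none. Its sum was 72818 CPM in pup 3 and 71490 CPM in pup 1. Mir130a, which acts on antiangiogenic homeobox genes, led it at 24032 ± 8.20 CPM (SD, n = 2 for the values of both lists), below Mir126a in each pup. Mir17, of a cluster that promotes cell growth, followed at 10724 ± 1354 CPM and Mir23b at 9738 ± 671 CPM. The lowest were Mir19a at 38.1 ± 13.7 CPM and Mir19b-1 at 7.92 ± 0.873 CPM. Of the 16 genes, 7 share 20 nt with another precursor and can be undercounted, and most are also made by cells outside vessels.

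Of the 16 endothelial genes tested, 7 were called higher and 5 lower in pup 3 and 4 did not pass, where 25.6% of all genes were called higher and 21.3% lower. The exact binomial test resolves smaller differences at higher counts. The median level of the list was 2384 CPM, beside 181 CPM over all genes tested. Its calls were not set beside genes of like level, so no excess can be read from them. The median log2 fold was 0.04, beside 0.02 over all genes tested. Under all 4 scalings, 5 stayed called higher (Mir23a, Mir27a, Mir27b, Mir18 and Mir19a) and 3 lower (Mir139, Mir17 and Mir20a), while the direction of Mir130a changed with the scaling. Mir23a and Mir27a, of 1 cluster, had log2 folds of 0.23 and 0.47, and Mir17 had one of -0.31.

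The mural list names 9 genes, of which 8 have a row; Mir497 has none. Its sum was 11640 CPM in pup 3 and 12067 CPM in pup 1 over all 8 genes, while Mir143 alone stood at 9519.9 CPM in pup 3 and at 7422 CPM in pup 1. Mir21a, raised in proliferating smooth muscle, led it at 5451 ± 406 CPM, below Mir143 in each pup. Mir204, which is also a choroid plexus microRNA, followed at 4082 ± 752 CPM and Mir195a at 1718 ± 9.61 CPM. Mir29b-1 had 5.70 ± 0.556 CPM, and Mir145b, a relative of Mir145a by name, had 1 count in pup 3 and 0 in pup 1. Mir26a-2 (38.7 CPM), Mir26a-1 (11.2 CPM) and Mir29b-1 share 20 nt with another precursor and can be undercounted, so the sum of the list can be too low. Of 7 genes tested, 2 were called higher and 1 lower in pup 3 and 4 did not pass, with a median log2 fold of 0.01; the shares over all genes tested were 25.6% higher and 21.3% lower. The call of Mir204, lower in pup 3 with a log2 fold of -0.43, was the only one that held under all 4 scalings.

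**Figure D5:**
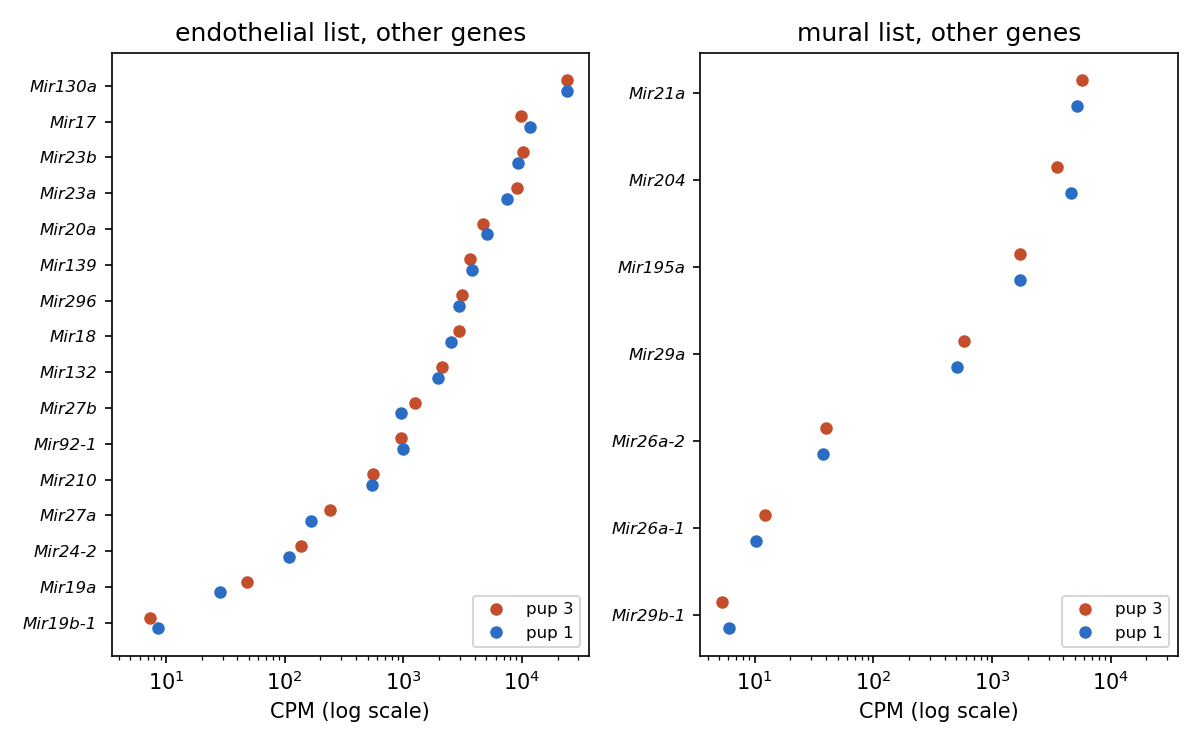
CPM (log axis) in pup 3 and pup 1 of the endothelial and mural list genes with counts in both pups, in order of mean level. The lists run from Mir130a at 24032 CPM to Mir19b-1 at 7.92 CPM and from Mir21a at 5451 CPM to Mir29b-1 at 5.70 CPM.

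Marker microRNAs of other cells that a piece of hindbrain can hold were summed, and their part in the values above was not tested. Red blood cell genes (2 of 2 with counts) came to 105 CPM in pup 3 and 151 CPM in pup 1, with Mir451a at 37.5 CPM in pup 3 and 134 CPM in pup 1 and Mir144 the other way, at 67.1 CPM in pup 3 and 17.1 CPM in pup 1. Of the 6 leukocyte and microglia genes listed, Mir142 and Mir146a matched no row by name, so their levels are not known from this list. Those with a row (3 of 4 had counts, and Mir142b was at 0) came to 555 CPM in pup 3 and 483 CPM in pup 1, led by Mir223 at 199 ± 42.6 CPM. A row named Mir146, at 128 CPM in each pup, was not part of this sum. Fibroblast and meningeal genes (5 of 5 with counts, Mir199a-1 at 0 in pup 1) came to 4917 CPM in pup 3 and 4308 CPM in pup 1, most of it Mir140 at 4645 CPM in pup 3 and 4096 CPM in pup 1. Striated muscle genes came to 133 CPM in pup 3 and 107 CPM in pup 1, mostly Mir206. Of their 7 genes with a row, Mir1a-1, Mir133a-1 and Mir133a-2 were at 0 in both libraries, and these 3 share 20 nt with other precursors. Choroid plexus genes (2 of 2) came to 4518 CPM in pup 3 and 5530 CPM in pup 1, epithelial genes (7 of 7) to 862 CPM in pup 3 and 713 CPM in pup 1, and oligodendrocyte genes (2 of 2) to 1885 CPM in pup 3 and 1508 CPM in pup 1. The log2 fold of summed CPM used no TMM factor. It had the sign of the fold of Mir143 for the leukocyte and microglia (0.20), fibroblast and meningeal (0.19) and striated muscle (0.32) lists. The same held for the epithelial (0.27), oligodendrocyte (0.32), endothelial (0.03) and neuronal (0.10) lists. The sign was opposite for the red blood cell (-0.53), choroid plexus (-0.29), mural (-0.05) and hindbrain position (-0.75) lists. Within the fibroblast and meningeal list Mir140 and Mir214 were called higher in pup 3, while Mir199b and Mir199a-2 had log2 folds of -0.12 and -0.64 and did not pass. In the leukocyte and microglia list Mir223 was called higher in pup 3 (log2 fold 0.39) and Mir155 lower (-0.29), while Mir150 (0.21) did not pass. The choroid plexus sum followed Mir204, called lower in pup 3 at -0.43, while Mir448 had a log2 fold of 0.03 and did not pass. Beside these calls, 25.6% of all genes tested were called higher in pup 3 and 21.3% lower.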

How the data were processed

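Total RNA from 2 single hindbrains gave 1 library each. The authors deposited raw counts per microRNA gene, made on mm10 with GENCODE M4 according to the deposited listings. The sources used here give no aligner, counter or trimming. Columns are not described, and the same-strand column was inferred as the one with almost every count at abundant genes. The 4 rows that name no gene stayed out of totals. Unmapped reads were 12.4% (pup 3) and 13.7% (pup 1) of all reads, and reads outside listed genes 3.63% and 3.79%.

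By Ensembl identifier without its version, 1894 of 1973 rows matched GENCODE M21 (GRCm38). The exact binomial test (scipy 1.17.1) used totals scaled by TMM factors (trimmed mean of M-values, edgeR 4.0.16 in R 4.3.3) over all genes with a count, genes that reach 10 counts in a library, a prior of 0.5 counts for folds and a threshold of 0.05. With 1 group, edgeR's quasi-likelihood test had no contrast and was left out. The coefficient of variation used genes that reach 10 counts in each library. The binomial test and its adjustment were tested on data simulated with counting error alone. That setting holds no spread between pups, so it does not cover false calls that such spread can cause here. The chi-square of the 2 libraries' counts was 49286 (394 degrees of freedom), beyond sampling noise, so each counted as 1 replicate. Alternatives were DESeq2 1.42.0 size factors, plain totals, other filters, the either-strand column and leaving out each pup. Reads carry no molecular identifiers, so intervals cover counting error only. The 5 genes, the lists and the tests were chosen with earlier results of these data known. Genes named are the 5, the 2 nearest to each in level, the 3 highest and 2 lowest of each vessel list, the highest of each marker list, genes that share a seed, and others named for a call or a count.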

Additional observations from a re-analysis of the deposited data

Results flagged for a closer look

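Mir497 of the mural list has no row of its own, but opposite-strand reads at Mir497b, where it lies, numbered 4363 in pup 3 and 2988 in pup 1, above the 3 counts that a count of 0 allows. No comparison above uses them. Opposite-strand counts at the 5 vessel genes did not exceed 2 in either pup.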

How the results depend on the processing

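No paired analysis was possible because the series holds 1 group. With all reads as library total, mean levels were 14991 CPM for Mir126a, 3569 for Mir143, 85.7 for Mir145a, 182 for Mir221 and 125 for Mir222, since that total also holds multimapped, unmapped and unassigned reads, of which the multimapped were the most. In the either-strand column Mir145a had 197 CPM and Mir222 had 287. With at least 1.5-fold demanded, 38 genes, 0 of the 5 and 1 other vessel gene were called, in place of 185, 3 and 15. With TMM factors only from genes that reach 10 counts in a library, an alternative chosen after seeing the data, every log2 fold moved by -0.13 from plain totals, beside -0.05 with factors from all genes; the log2 fold of Mir126a was then -0.02 (-0.0175) and 181 genes were called. Across scalings, filters and columns, log2 folds ran from 0.23 to 0.36 for Mir143, from -0.34 to -0.21 for Mir221, from -0.18 to -0.05 for Mir145a and from -0.13 to -0.01 for Mir222, and no further call or direction among the 5 changed. Per precursor length, also added later, Mir221 over Mir222 was 0.27 on the log2 scale. Without 1 pup in turn, Mir143 over Mir145a ran from 5.16 to 5.57 and Mir221 over Mir222 from 0.43 to 0.64. Larger ratios than that of Mir143 and Mir145a were found in 10.8% of pairs with at least 100 counts in both libraries and in 15.7% of pairs that share no 20 nt; the cause was not tested. With 2 pups, an SD is itself imprecise.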
